A study of Mus musculus with 8 samples.

Results

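The 47 genes described here encode proteins of the cytosolic ribosome, 29 of the large and 18 of the small subunit, and were taken by name from a fixed list. They are 47 of 21883 protein-coding genes of the mouse genome, and all 47 were found in the annotation. For each gene, every listed chromatin loop with an anchor in the gene body or within 5 kb of either side was counted. The question was whether these housekeeping genes, known for very active promoters in every tissue, carry chromatin loops of the circadian repressor REV-ERBα in mouse liver. Expression itself was not measured in these libraries.

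Ribosomal protein genes are a large coordinately expressed family whose mRNAs begin with a tract of pyrimidines that lets the mTOR pathway control their translation. Their products assemble with ribosomal RNA in the nucleolus, and many of the genes host small nucleolar RNAs in their introns. The genes have many processed pseudogene copies elsewhere in the genome, so sequence from their exons can match several places. How reads with several matches were treated is not given in the sources used here, so counts at these genes are uncertain to that extent. REV-ERBα (gene Nr1d1) is a nuclear receptor that binds a response element built on the letters AGGTCA and represses transcription, and in mouse liver its level is high late in the light phase and low late in the dark phase.

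The loops come from in-situ ChIA-PET, in which crosslinked chromatin is cut and religated inside nuclei, pulled down with an antibody, and sequenced from both ends, so that each paired-end tag (PET) joins 2 places that lay close together. Of 8 samples in the series, 6 were pulled down with beads against the HA tag, and the 2 pulled down for CTCF were left aside (not analysed here). REV-ERBa3HA/3HA knock-in mice, which carry a 3HA tag on their own REV-ERBα and received no virus, gave 2 libraries, 1 collected at ZT22 (ZT is zeitgeber time, hours after lights on) and the other at ZT10. REV-ERBaf/fREV-ERBbf/f mice, whose genes for REV-ERBα and REV-ERBβ are floxed, received AAV8-TBG-Cre together with either AAV8-TBG-3HA-REV-ERBa-WT (WT, 2 libraries) or AAV8-TBG-3HA-REV-ERBa-delhIDR (dhIDR, 2 libraries), a form that by its label lacks the hIDR. All 4 AAV libraries share the Cre virus and were collected at ZT10. TBG is the promoter of thyroxine-binding globulin, which is active in hepatocytes, so Cre and the tagged construct were made in those cells and other liver cells keep their floxed genes. The labels give no age. Nothing in them says that replicates are different animals, so a p-value here reflects library-to-library spread that may be only technical. The libraries are of whole liver, so fewer cells with a loop and fewer loops per cell cannot be told apart.

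Listed PETs on nuclear chromosomes ranged from 104161 to 320427 per library, and every listed loop had at least 3 PETs, so a gene at 0 is one with no listed loop. Whether the lists also leave out pairs with 3 or more PETs is not given in the sources used here. The ZT10 knock-in library stood apart from the other 5, with a median loop span of 40.1 kb against 524 to 1071 kb. Hepatocyte marker genes, chosen with earlier results of these data known, gave a limited check of the tissue in the ZT10 knock-in library. There 9 of 10 had listed loops, with Serpina1c listed in no library, and Fgg, a fibrinogen chain, had 1216 PETs. The other libraries listed 8 at ZT22, 6 and 4 for WT, and 7 and 6 for dhIDR. PETs summed over these markers were 3810 at ZT10 but 36 to 50 in the AAV libraries, where the check is weak. Most of the 3810 came from the neighbouring fibrinogen genes Fga (1022), Fgb (930) and Fgg (1216), whose windows can share loops. Nr1d1 had 265 PETs at ZT10 and 3 at ZT22. In the AAV libraries, also of ZT10, Nr1d1 had only 5 and 3 for WT (replicate 1, then 2) against 5 and 0 for dhIDR. Nr1d2, the gene of REV-ERBβ, ran the other way with the knock-in, with 10 PETs at ZT22 against 3 at ZT10. Its AAV counts were 0 and 15 for WT against 0 and 3 for dhIDR. Of 5 markers each for other liver cells, those listed at ZT10 were 4 endothelial (116 PETs), 3 stellate (20), 2 lymphoid (29), 1 cholangiocyte (32) and 1 Kupffer (3). Their part in the results at ribosomal protein genes was not tested.

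Anchors lay directly over the start of 5 ribosomal protein genes at ZT10, and the 250 bases before those starts are shown because they are the promoters the loops touched. They are from RefSeq, build GRCm38.p6, whose coordinates are those of mm10. Rps16 lies at chr7:28350439-28350688 (plus strand), Rpl27 at chr11:101441995-101442244 (plus), Rps18 at chr17:33955666-33955915 (minus), Rps21 at chr2:180257129-180257378 (plus) and Rps7 at chr12:28635954-28636203 (minus). Capitals mark matches, on either strand, to AGGTCA or to CCGGAAG, the core of the site bound by ETS factors.
Rps16: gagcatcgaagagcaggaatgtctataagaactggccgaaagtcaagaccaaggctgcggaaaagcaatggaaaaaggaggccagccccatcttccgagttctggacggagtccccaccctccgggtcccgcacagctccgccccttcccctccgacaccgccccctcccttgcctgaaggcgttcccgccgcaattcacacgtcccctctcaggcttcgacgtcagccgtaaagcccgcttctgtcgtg
Rpl27: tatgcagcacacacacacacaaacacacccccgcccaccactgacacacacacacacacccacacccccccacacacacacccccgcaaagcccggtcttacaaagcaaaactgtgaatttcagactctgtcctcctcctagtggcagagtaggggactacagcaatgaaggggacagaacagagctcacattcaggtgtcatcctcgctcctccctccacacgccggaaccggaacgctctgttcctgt
Rps18: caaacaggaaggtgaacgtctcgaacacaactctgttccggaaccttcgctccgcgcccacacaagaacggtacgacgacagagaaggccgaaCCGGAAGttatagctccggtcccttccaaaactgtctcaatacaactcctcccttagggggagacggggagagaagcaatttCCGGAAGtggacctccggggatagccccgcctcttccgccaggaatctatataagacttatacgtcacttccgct
Rps21: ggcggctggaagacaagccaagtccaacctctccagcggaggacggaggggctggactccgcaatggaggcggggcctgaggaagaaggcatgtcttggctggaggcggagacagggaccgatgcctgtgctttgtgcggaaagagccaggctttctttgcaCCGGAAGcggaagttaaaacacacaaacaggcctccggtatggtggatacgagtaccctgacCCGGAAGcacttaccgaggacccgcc
Rps7: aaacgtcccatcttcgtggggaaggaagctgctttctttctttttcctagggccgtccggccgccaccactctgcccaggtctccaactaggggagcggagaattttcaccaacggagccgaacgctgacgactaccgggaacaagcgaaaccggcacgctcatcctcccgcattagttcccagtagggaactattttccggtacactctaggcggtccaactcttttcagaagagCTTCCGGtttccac

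Promoter sequences were found for 39 of the 47 genes. Rpl3, Rpl7, Rpl8, Rpl30, Rpl32, Rplp1, Rps14 and Rps20 were not matched. AGGTCA, on either strand, was present before the start of 3 of the 39 (7.69%), namely Rpl22, Rpl24 and Rps3, against 13.8% of 27025 promoters of the same length. None of the 3 had a listed PET at ZT10. The longer monomer element of REV-ERB and ROR receptors (RORE), which contains AGGTCA and was searched on both strands, was present in 0 of the 39 and in 0.659% of all promoters. CCGGAAG, which cannot overlap AGGTCA in the promoters shown because none of them holds AGGTCA, was present in 13 of the 39 (33.3%) and in 7.07% of all promoters. The median GC content was 58.0% in the ribosomal protein promoters and 52.0% in all. These matches are letters in a window and do not show binding.

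Many ribosomal protein genes had a listed loop, but none had many PETs. At ZT10, 24 of 47 genes (51.1%) had at least 1 listed loop, and at ZT22 22 of 47 (46.8%). The AAV libraries listed 18 (WT replicate 1), 23 (WT replicate 2), 20 (dhIDR replicate 1) and 18 (dhIDR replicate 2) of the genes. The highest count at any gene in any library was 15 PETs, at Rps16 at ZT10. The median gene had 3 PETs at ZT10 and 0 in each of the other 5 libraries.

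**Figure D1:**
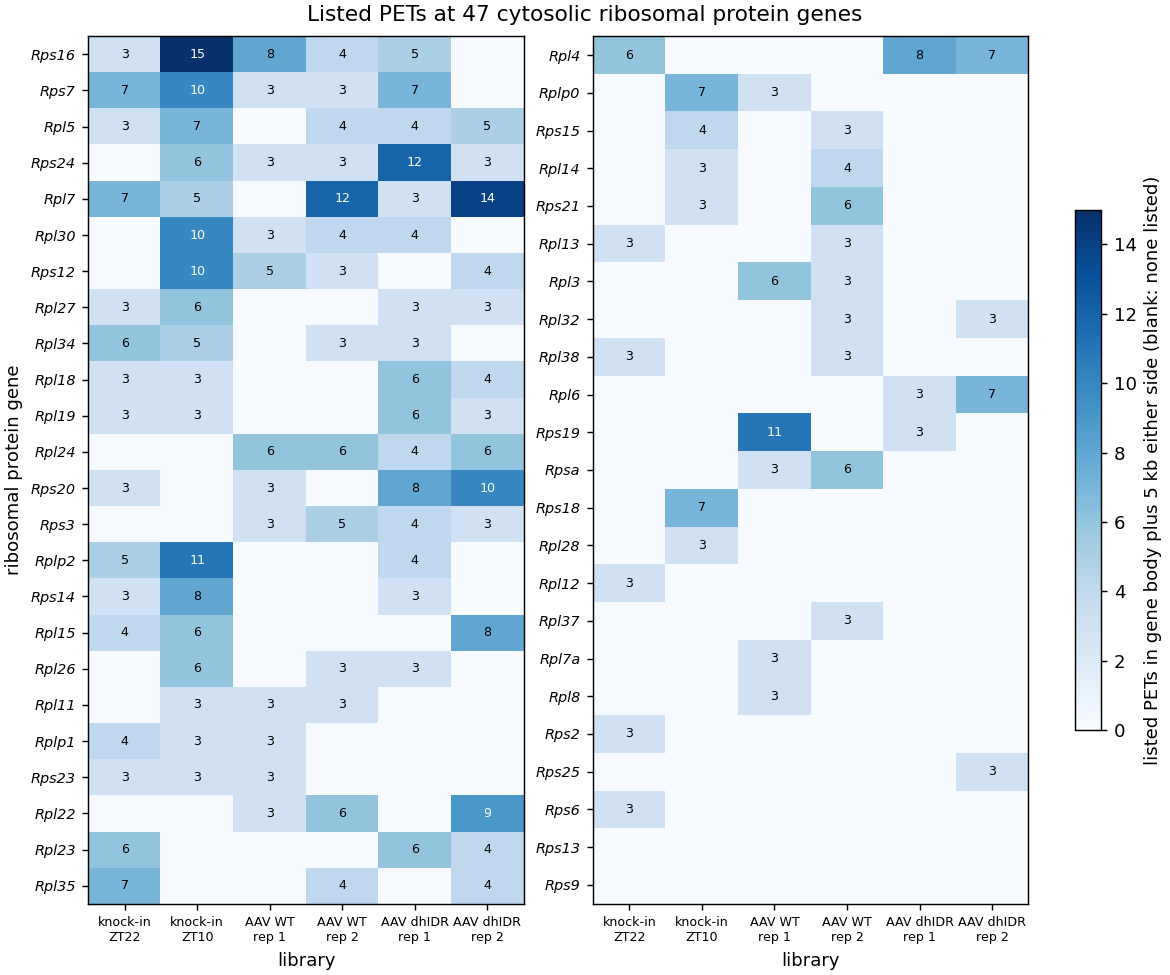
Listed PETs at each of the 47 ribosomal protein genes (rows, split over 2 panels) in each of the 6 anti-HA libraries (columns), ordered by the number of libraries that list the gene, with colour and printed number giving the PETs and blank cells standing for 0. No gene was listed in all 6 libraries, 5 were listed in 5, and Rps13 and Rps9 were listed in none.

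The 47 genes are short, from 1.07 to 9.65 kb, and short genes have small windows that catch few anchors. Shares were therefore set beside all other protein-coding genes weighted to the same length classes (under 3, 3 to 5 and 5 to 10 kb), as a description with no test. With that weighting, 33.1% of other genes had a loop at ZT10, so that ribosomal protein genes stood 17.9 percentage points higher. The difference ran in the same direction in the other 5 libraries, by 14.3 points at ZT22, 13.6 (replicate 1) and 10.7 (replicate 2) for WT, and 6.37 and 7.56 for dhIDR. Over all genes regardless of length, the share with a loop was 52.1% at ZT10 and 58.5% at ZT22.

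**Figure D2:**
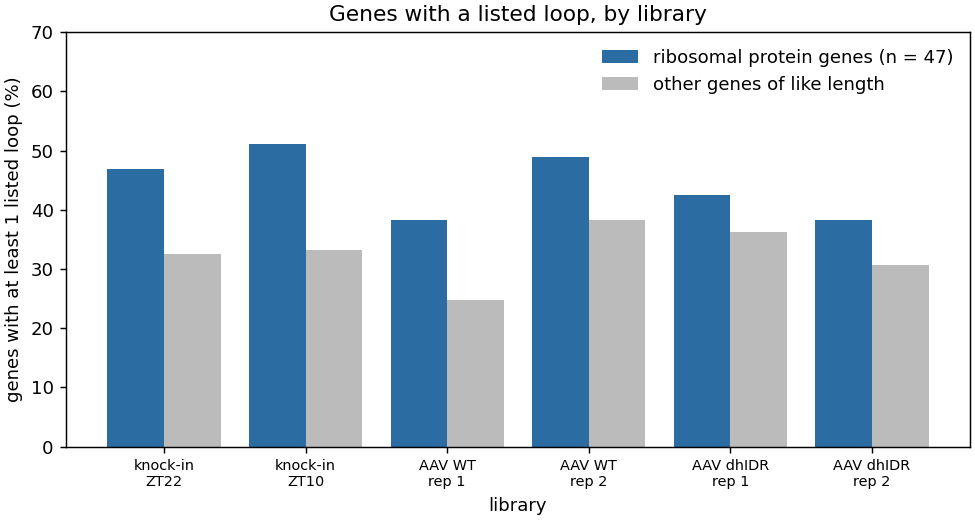
Percentage of genes with at least 1 listed loop in each anti-HA library, for the 47 ribosomal protein genes (blue) and for other protein-coding genes weighted to the same length classes (grey). The blue bar is above the grey bar in all 6 libraries, by 6.37 to 17.9 percentage points, and no bar has an error because each is 1 library.

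The shortest genes made most of the difference at ZT10. Of 17 ribosomal protein genes under 3 kb, 9 (52.9%) had a loop at ZT10, against 19.2% of 3382 other genes of that length. From 3 to 5 kb the numbers were 10 of 19 (52.6%) against 38.9%, and from 5 to 10 kb 5 of 11 (45.5%) against 44.6%. The class under 3 kb holds 1208 olfactory, vomeronasal and trace amine receptor genes. Without those families the weighted share at ZT10 was 36.6%, which left a difference of 14.4 points. In both dhIDR libraries the order under 3 kb was the other way, with 3 and 2 of 17 ribosomal protein genes listed (17.6% and 11.8%) against 26.9% and 22.2% of other genes.

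With rising PET counts the order turned at ZT10. At least 6 PETs were reached by 13 ribosomal protein genes (27.7%) and 19.5% of genes of like length. At least 10 PETs were reached by 5 (10.6%) against 13.0%, at least 15 by 1 (2.13%) against 9.29%, and at least 20 by 0 of 47 against 7.78%. The mean per gene was 3.13 PETs for ribosomal protein genes and 7.20 for genes of like length at ZT10. At ZT22 those means were 1.94 and 1.47, and at least 10 PETs were reached by 0 of 47 against 1.21%. In the AAV libraries the means of ribosomal protein genes, 1.60 to 2.13 PETs, were above those of genes of like length in each library, 1.06 to 1.87.

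**Figure D3:**
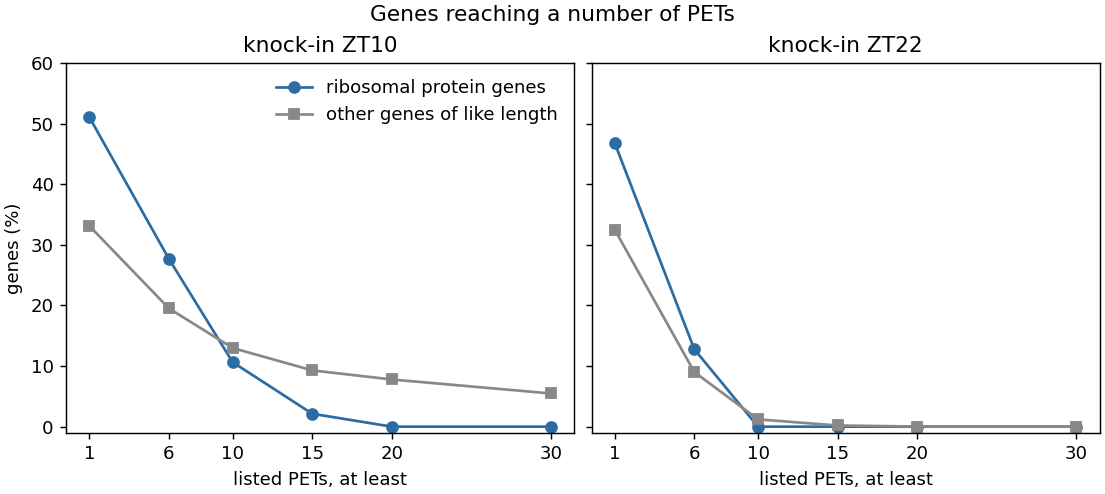
Percentage of genes (vertical axis) with at least 1, 6, 10, 15, 20 or 30 listed PETs (horizontal axis) in the ZT10 and ZT22 knock-in libraries, for the 47 ribosomal protein genes (circles) and other genes weighted to the same lengths (squares). At ZT10 the ribosomal protein genes start higher, at 51.1% against 33.1%, and end at 0 against 5.47% for 30 PETs.

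Rps16 had the most PETs of the 47 genes at ZT10, followed by Rplp2, and both subunits had members at 10. Rps16 (chromosome 7, 28350689 to 28352698), a protein of the decoding subunit, had 3 PETs at ZT22 and 15 at ZT10. With AAV it had 8 and 4 for WT (replicate 1, then 2) against 5 and 0 for dhIDR. In PETs it was highest at ZT10 and absent from dhIDR replicate 2 only, and its WT range (4 to 8) and dhIDR range (0 to 5) overlap. As a share of listed PETs it was higher in WT replicate 1 (8 of 104161) than at ZT10 (15 of 320427). Rps7 (chromosome 12, 28630847 to 28635953), a small-subunit protein needed for processing of ribosomal RNA, had 7, 10, 3, 3, 7 and 0 in the same library order. Rps12 (chromosome 10, 23785183 to 23787383) had 0 at ZT22, 10 at ZT10, 5 and 3 in WT, and 0 and 4 in dhIDR. Rps24 (chromosome 14, 24490678 to 24496960), mutated in some families with Diamond-Blackfan anaemia, was highest in a dhIDR library, with 0, 6, 3, 3, 12 and 3.

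Rps14 (chromosome 18, 60774596 to 60778546), whose loss underlies the anaemia of human 5q deletion, had 3 PETs at ZT22, 8 at ZT10, 0 in both WT libraries, and 3 and 0 in dhIDR. Rps18 (chromosome 17, 33951998 to 33955665) was listed at ZT10 alone, with 7 PETs. The 18 small-subunit genes together held 25 PETs in the ZT22 library and 66 in the ZT10 library, with 42 and 33 for WT against 42 and 23 for dhIDR. The 29 large-subunit genes held 66 at ZT22 and 81 at ZT10, with 33 and 64 for WT against 57 and 77 for dhIDR. At ZT10, 15 of 29 large-subunit and 9 of 18 small-subunit genes had a loop. The ZT10 counts of both subunits are the highest of the 6 before allowing for that library's larger total of listed PETs, and the subunits were not tested against each other.

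In the large subunit, the proteins of the stalk, which recruits translation factors, gave a mixed picture. Rplp2 (chromosome 7, 141447651 to 141451359) had 5 PETs at ZT22, 11 at ZT10, 0 in both WT libraries, and 4 and 0 in dhIDR. Rplp0 (chromosome 5, 115559467 to 115563729) had 0, 7, 3, 0, 0 and 0 in that order, and Rplp1 4, 3, 3, 0, 0 and 0. In PETs, before allowing for library totals, Rplp0 and Rplp2 were thus highest at ZT10, and Rplp1 was not. As a ratio of shares of listed PETs, ZT10 over ZT22, Rplp2 was at 0.911 (interval 0.292 to 3.35).

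Other large-subunit genes spread over the libraries. Rpl5 (chromosome 5, 107900508 to 107909005), which carries 5S ribosomal RNA into the ribosome and can bind the p53 regulator MDM2, had 3 PETs at ZT22, 7 at ZT10, 0 and 4 in WT, and 4 and 5 in dhIDR. Its partner Rpl11 had 0, 3, 3, 3, 0 and 0. Rpl30 (chromosome 15, 34440505 to 34443276) had 0 at ZT22, 10 at ZT10, 3 and 4 in WT, and 4 and 0 in dhIDR. None of these genes was above 5 PETs in an AAV library.

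Rpl7 (chromosome 1, 16101295 to 16104433) had its high counts in 1 library of each construct, with 7 PETs at ZT22, 5 at ZT10, 0 and 12 in WT, and 3 and 14 in dhIDR. At 6 PETs at ZT10, Rpl15 had 4 at ZT22, 0 in both WT libraries, and 0 and 8 in dhIDR. Rpl26 had 0, 6, 0, 3, 3 and 0 PETs in the usual order, and Rpl27 had 3, 6, 0, 0, 3 and 3. The replicates of a construct disagreed at Rpl7 by more than the constructs did.

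The genes with most PETs at ZT22 were Rpl7, Rps7 and Rpl35 with 7, and Rpl4, Rpl23 and Rpl34 with 6. Rpl35 had 0 PETs at ZT10, 0 and 4 in WT, and 0 and 4 in dhIDR. Rpl4 had 0 at ZT10, 0 in both WT libraries, and 8 and 7 in dhIDR. Rpl23 had 0 at ZT10, 0 in both WT libraries, and 6 and 4 in dhIDR, and Rpl34 had 5 at ZT10, 0 and 3 in WT, and 3 and 0 in dhIDR. So 3 of these 6 were unlisted at ZT10.

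The remaining genes ran from 0 in every library to 11 PETs in 1 library. Rps13 and Rps9, both proteins of the small subunit, were listed in no library, and 9 genes in 1 library each, at 3 PETs except Rps18. These 9 include Rps6, the ribosomal target of S6 kinase, which had 3 PETs at ZT22. Rps19, the gene most often mutated in Diamond-Blackfan anaemia, had 11 PETs in WT replicate 1, 3 in dhIDR replicate 1 and none elsewhere. At least 4 libraries listed 14 genes (29.8%, against 15.6% of genes of like length), and 5 libraries listed Rpl5, Rpl7, Rps16, Rps24 and Rps7. All 4 AAV libraries listed Rpl24, Rps24 and Rps3 (6.38%, against 2.74%). Of these, Rpl24, which forms a bridge between the subunits, was unlisted in both knock-in libraries and had 6 and 6 PETs for WT against 4 and 6 for dhIDR. Rps3, which sits at the mRNA entry channel, was likewise unlisted in the knock-in libraries and had 3 and 5 PETs for WT against 4 and 3 for dhIDR. Rpl22 had 3 and 6 for WT against 0 and 9 for dhIDR, and none with the knock-in.

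The knock-in comparison asked whether loops at these genes rise at ZT10, when REV-ERBα is abundant. Counting each loop once, the 47 genes held 91 PETs (exact Poisson 95% interval 73.3 to 112) at ZT22 and 147 (124 to 173) at ZT10. As a share of listed PETs this was 6.86 per 10000 at ZT22 (5.52 to 8.42) and 4.59 at ZT10 (3.88 to 5.39). The ratio, ZT10 over ZT22, was 0.669 (exact interval 0.512 to 0.879), a log2 ratio of -0.58. For genes of like length a ratio from mean PETs per gene, where a loop can count for several genes, was 2.03. Strong single genes such as Fgg (11 PETs at ZT22, 1216 at ZT10) weigh heavily in that mean. The share of genes of like length with a loop was 32.5% at ZT22 and 33.1% at ZT10. Each time is 1 library, so this compares libraries and not times of day, and the intervals cover counting error only. With a 25-kb window the log2 ratio changed sign, to 0.0502, and with loops of at least 4 PETs it was -1.71 (ratio 0.305).

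Single genes followed a rule of size, at least 10 PETs over both libraries and a ratio of shares of at least 2-fold, with a count under 3 set to 3. Of 10 ribosomal protein genes with enough PETs, 1 was higher at ZT10 by this rule, whereas among all 8616 such genes 32% were. Rps16 was that gene, at a ratio of 2.07 (interval 0.586 to 11.2). The count toward ZT10 is limited by the floor. Rpl36, a ribosomal protein gene outside the 47, had 14 PETs at ZT10 and 0 at ZT22 and did not pass (log2 ratio 0.951). Of the 47 genes only Rps16, at 15, had more than 14 PETs at ZT10, so the share of 32% is no like measure for them. At ZT22, 2 of the 10 were higher, against 41.4% of all such genes, and these were Rpl7, 3.38-fold, and Rpl34, 2.90-fold. The intervals of all 3 ratios include 1 (for ZT10 over ZT22, 0.0740 to 1.08 at Rpl7 and 0.0833 to 1.36 at Rpl34). A gene with enough PETs and equal counts at both times passes as higher at ZT22. The mitochondrial ribosomal protein gene Mrpl24 did so with 6 and 6 (log2 ratio -1.27). Since 0 of the 47 genes reached 10 PETs at ZT22, the share of 41.4% is no like measure for them either.

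The other 7 lay within 2-fold by this rule. They include Rpl30 and Rps12, each with 10 PETs at ZT10 and 0 at ZT22, whose ratio of 1.38 rests on the floor. The median log2 ratio was -0.09 over the 10 genes and -0.23 over all 8616, so relative to the median gene the ribosomal protein genes were at 0.14 and their summed share at -0.35. The sign of the single-gene median thus depends on the scale, and with the median gene as the scale the same number, 1 and 2 of 10, passed the rule. With a 2-kb window none of 4 genes passed it, and with a 25-kb window 17 of 28 did. The share of all genes passing was not recorded for those windows, so these counts do not show more or fewer changes than the background. Of the 47 genes, 13 were listed at both times, 11 at ZT10 alone, 9 at ZT22 alone and 14 at neither.

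The construct comparison asked whether loops at these genes change when REV-ERBα lacks the hIDR. Ribosomal protein loops held 75 PETs (replicate 1) and 97 PETs (replicate 2) for WT, against 99 and 100 for dhIDR. Per 10000 listed PETs this was 7.20 and 4.75 for WT against 5.55 and 6.23 for dhIDR, with means of 5.98 ± 1.73 (SD, n = 2) and 5.89 ± 0.479 (SD, n = 2). Both dhIDR values lie between the WT values, and the log2 difference of 0.02 did not pass an exact two-sided permutation test (p = 1, where 0.33 is the smallest possible). Leaving out WT replicate 1 gave -0.31 and leaving out WT replicate 2 gave 0.29, so the sign rests on single libraries.

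Only Rpl7 had enough PETs for the edgeR test over 4753 genes, of which 0.021% (1 gene) passed. Its log2 difference, WT over dhIDR, was -0.67 (SE 1.94, adjusted p = 1 in edgeR), with counts of 0 and 12 against 3 and 14. So edgeR called 0 of the 1 ribosomal protein gene tested, which also missed an unadjusted p of 0.05, and DESeq2 called 0. Without the filter on low counts edgeR tested 40 and called 0, where 0.0158% of 18942 genes passed. Below an unadjusted p of 0.05 was 1 of the 40 (2.5%), against 2.85% of all genes. It was Rpl4 (0 and 0 PETs in WT, 8 and 7 in dhIDR, adjusted p = 0.998 in edgeR). Counts were also simulated with the means and fitted spread of these libraries, but without their cut at 3 PETs per loop. Of 142 genes changed 8-fold among 4661 tested, 12% were found, leaving out changed genes that failed the filter. So most differences of that size would not be seen in such counts.

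By value alone, WT and dhIDR counts did not overlap at 10 of the 40 genes with a PET in an AAV library. WT was higher at 3 (7.5%, against 7.05% of 18942 genes), namely Rpl3 (6 and 3 against 0 and 0), Rpsa (3 and 6 against 0 and 0) and Rpl11 (3 and 3 against 0 and 0). Rpl3 lies near the peptidyl transferase centre of the ribosome, and Rpsa also serves as a laminin receptor. dhIDR was higher at 7 (17.5%, against 13.3% of all), among them Rpl4 and Rps20 (3 and 0 in WT, 8 and 10 in dhIDR). The other 5 were Rpl6, Rpl18, Rpl19, Rpl23 and Rpl27, each unlisted in WT and with 3 to 7 PETs in dhIDR. These shares are near the background.

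Single loops at these genes reached few PETs. In every library the strongest had 6 to 9 PETs, while the strongest nuclear loop of all had from 16 PETs in dhIDR replicate 2 to 374 at ZT10. At ZT10, 28 of 42 ribosomal protein loops (66.7%) had the lowest count of 3, against 54.6% of all loops, and 14.3% had at least 5, against 28.3%. At ZT22, 20 of 27 (74.1%) were at 3 PETs against 81.2% of all loops, and 7.41% had at least 5 against 4.38%. With at least 5 PETs were 13.6% against 6.69% in WT replicate 1, 10.7% against 11.7% in WT replicate 2, 19.2% against 17.7% in dhIDR replicate 1 and 29.2% against 20.4% in dhIDR replicate 2. So the share with at least 5 PETs was below that of all loops at ZT10 and in WT replicate 2, and above it in the other 4 libraries, on 2 to 7 ribosomal protein loops each.

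The strongest at ZT10 joined Rps12 to the neighbouring gene Slc18b1, 8.67 kb away, with 6 PETs (chromosome 10, 23787466 to 23788735 and 23795794 to 23797750). With 5 PETs, a loop joined the start of Rps16 (28350075 to 28351301) to Supt5 (28340990 to 28342596), which encodes an elongation factor, 8.90 kb away. Rplp2 had a loop of 5 PETs to an anchor at Cd151, Polr2l and Tspan4, and Rps14 had one to Ndst1, 49.2 kb away. Rpl34 had one to the complement factor gene Cfi, 893 kb away, and Rpl7 one of 92.0 kb to a place near no protein-coding gene. The near anchors of Rps16 and Rpl34 overlap the gene body, and those of Rps12, Rplp2, Rps14 and Rpl7 lie in the flank. In all 3 loops of Rplp2 at ZT10 the near anchor also lay in the windows of Cracr2b and Pnpla2. That of the Rpl7 loop also lay in the window of Rdh10. Which of the genes sharing an anchor such a loop belongs to was not tested. The next 8 loops had 4 PETs each.

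**Figure D4:**
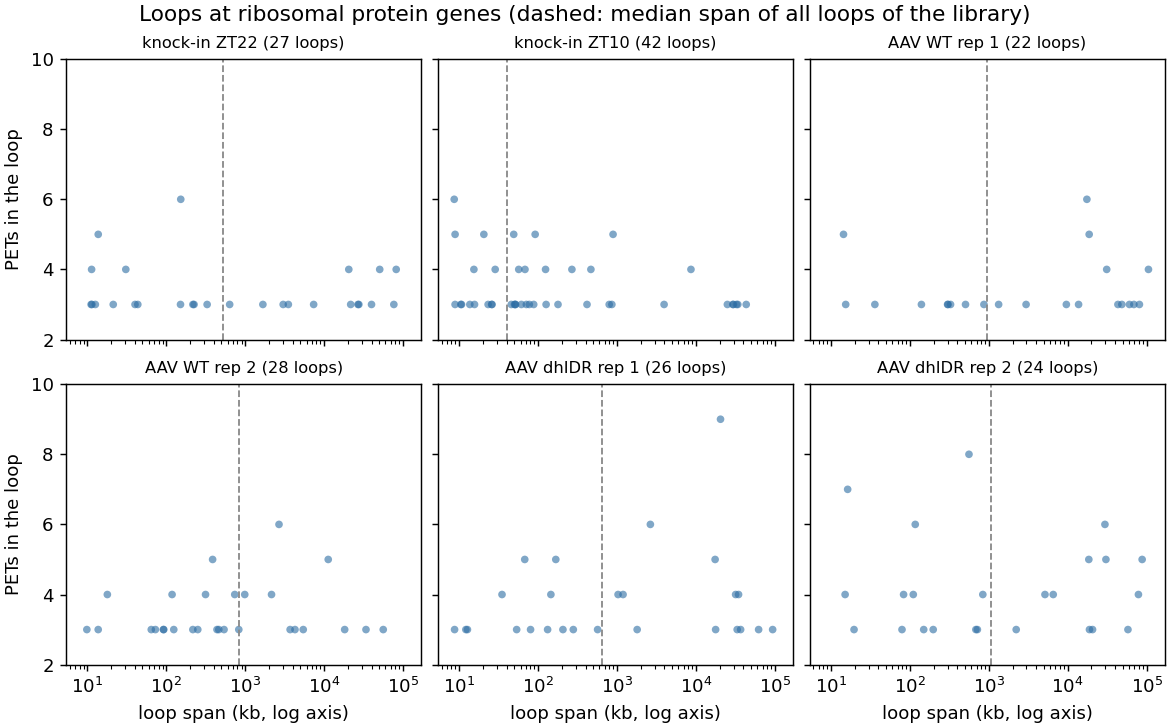
Span in kb (log axis) and PETs of each loop at the 47 ribosomal protein genes, 1 panel per library, with a dashed line at the median span of all loops of that library. At ZT10 the 42 loops have a median span of 69.7 kb and reach 6 PETs, and in the other libraries more of the points lie over 2 Mb.

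Ribosomal protein loops had a lower median span at ZT10 than in the other libraries, as all loops had. Their median span was 69.7 kb at ZT10, against 40.1 kb for all loops there, and 330 kb at ZT22 against 524 kb. Loops over 2 Mb made up 8 of 42 (19.0%) at ZT10 against 8.33% of all loops, and 11 of 27 (40.7%) at ZT22 against 39.0%. In the AAV libraries they made up 32.1% to 54.5%. The median anchor of these loops was 867 bp wide at ZT10 and 593 to 628 bp wide elsewhere.

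In the knock-in libraries the share of these genes with an anchor on the promoter was near that of other genes and slightly below it. In the AAV libraries the order varied. With 0 to 5 of 39 genes per library, none of these differences was tested. Within 300 bases around the start (250 before and 50 after), 5 of 39 ribosomal protein genes (12.8%) had an anchor at ZT10, against 14.3% of other genes weighted to the same lengths and 18.8% of all 17491 genes with a known start. At ZT22 it was 0 of 39 against 2.93%. In WT replicate 1 it was 3 (7.69%, Rps16, Rps3 and Rpsa) against 1.94%, and in WT replicate 2 it was 1 (2.56%, Rpsa) against 3.15%. In dhIDR replicate 1 it was 1 (2.56%, Rpl27) against 3.78%, and in dhIDR replicate 2 it was 2 (5.13%, Rpl6 and Rpl23) against 2.28%. Rps16 had 12 PETs in 3 loops at its start at ZT10, to Supt5 and to 2 anchors at Zfp36, 1 of which also lay at Plekhg2. Rpl27 had 2 such loops, and Rps18, Rps21 and Rps7 1 each.

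The windows are shared with other genes. Of the 42 loops at ZT10, 21 (50%) had a near anchor that also fell in another protein-coding gene's window, and in the other libraries 50% to 64.3% did. The far anchor lay in a gene window for 33 of 40 loops with 1 anchor at the ribosomal protein gene (82.5%) at ZT10, where 66.7% of all loops touching a gene had both anchors in gene windows. In the other libraries the share was 58.3% to 72.0%, against 44.8% to 51.0%. These shares have unlike bases and do not show an excess. The first starts from an anchor already at a gene, and the second counts every loop with either anchor in a gene window. No far anchor, in any of the 6 libraries, lay at another of the 81 cytosolic ribosomal protein genes examined. Rpl15 neighbours Nr1d2, which encodes REV-ERBβ, and 1 loop of 3 PETs at ZT10 joined them over 51.4 kb.

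No loop at these genes recurred. None of 42 loops at ZT10 overlapped a loop of another library at both anchors by at least 1 bp, against 2.22% of all loops there, and none of 27 at ZT22, against 1.47%. The same held for the 22, 28, 26 and 24 loops of the AAV libraries, where 0.438% to 0.797% of all loops did. With shares that low among all loops, the number of ribosomal protein loops is too small to show a difference.

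Other genes of protein synthesis and housekeeping, from lists fixed for comparison, also had few PETs next to hepatocyte genes. Per 10 kb of window at ZT10, the mean was 2.33 PETs for the 47 genes, 4.16 for 34 further cytosolic ribosomal protein genes, 3.73 for 26 translation factors, 5.82 for 30 mitochondrial ribosomal proteins, 6.25 for 20 ribosome biogenesis genes and 7.08 for 20 other housekeeping genes. It was 4.20 over all genes and 218 over the 10 hepatocyte markers. That last mean rests mostly on the neighbouring fibrinogen genes Fga (585), Fgb (528) and Fgg (702), whose windows can share loops. The other 7 ran from 0 at Serpina1c and 4.38 at Cps1 to 219 at Apoa1. At ZT22 the same lists lay between 0.935 and 3.00, with the 47 genes at 1.40 and all genes at 1.07.

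Among the 34 further ribosomal protein genes 19 had a loop at ZT10, led by Rps28 (24 PETs at ZT10, 0 at ZT22) and Rpl27a (23 and 0). By the 2-fold rule 3 of the 9 with enough PETs were higher at ZT10 and 2 at ZT22. Among translation factors 4 of 16 were higher at ZT10 and 4 at ZT22, with Eef1a1, the elongation factor that brings aminoacyl-tRNA to the ribosome, at 25 PETs against 0. The ribosome biogenesis list had 3 of 6 higher at ZT10, led by Myc (57 against 0), a transcription factor that drives ribosome production, and 1 at ZT22. Mitochondrial ribosomal proteins had 4 of 9 higher at ZT10, led by Mrpl12 (103 against 3), and 3 at ZT22, and other housekeeping genes had 4 of 10 and 2. For hepatocyte markers it was 7 of 9 and 0. Among all 8616 genes with enough PETs, 32% were higher at ZT10 and 41.4% at ZT22. The lists held 6 to 16 such genes each, and none was tested against those shares. Apoa1, a gene of 1.84 kb, had 259 PETs at ZT10. The most at any of the 47 ribosomal protein genes was 15, and among the 34 further ones it was 24.

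**Figure D5:**
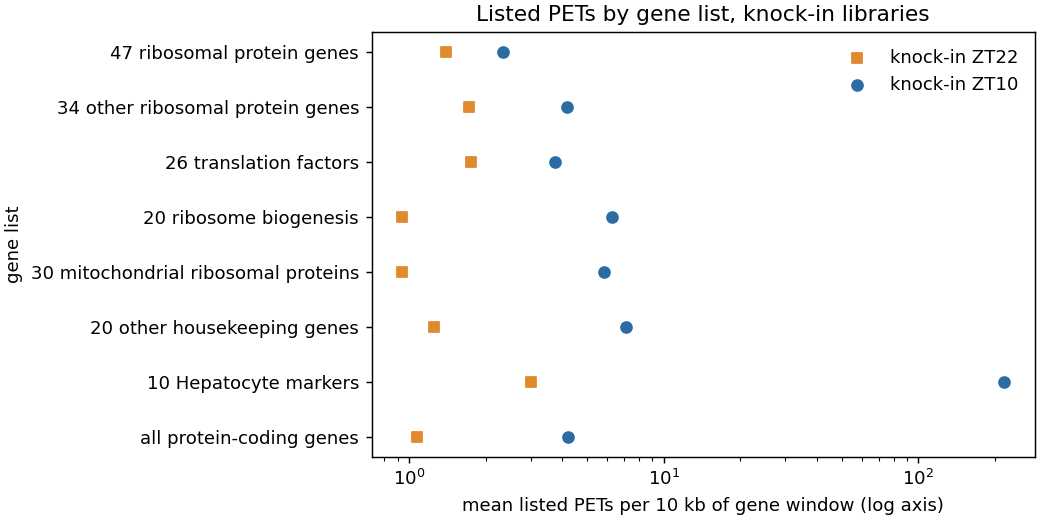
Mean listed PETs per 10 kb of gene window (log axis) at ZT10 (circles) and ZT22 (squares) in the knock-in libraries, for the 47 ribosomal protein genes, the comparison lists and all protein-coding genes. The ribosomal protein genes are at 2.33 at ZT10, below the 4.20 of all genes, and the hepatocyte markers are at 218.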

How the data were processed

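The deposited tables hold, per library, anchor pairs within 1 chromosome and raw counts of PETs joining them, with no normalization by the authors and no pooling of replicates. The submitters' processing notes name mm10. Aligner, duplicate filter and loop caller are not given in the sources used here. Groups came from the sample labels. Anchor starts were taken as 0-based, and mitochondrial loops were left out. A loop counted for a protein-coding gene (RefSeq, GRCm38.p6) when an anchor touched the gene body or 5 kb either side, once per gene. Gene windows overlap, so neighbours share PETs.

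Members and lists were chosen with earlier results of these data known. Other genes were weighted to the members' length classes. Values are given for the genes with most PETs at ZT10 or ZT22, the smallest p or the most libraries, with ties kept, and for the strongest ZT10 loops. Genes outside that rule, such as Rps19, the non-overlapping ones and list leaders, were named after their values were seen. WT and dhIDR were compared with edgeR 4.0.16 (quasi-likelihood, TMM, filterByExpr, Benjamini-Hochberg at 0.05) over all genes, with DESeq2 1.42.0 as an alternative, in R 4.3.3, and shares by exact permutation in scipy 1.17.1. The edgeR step was tested on simulated data, where 10 times the depth and less spread (dispersion 0.05) let it find all 200 genes changed 8-fold.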

Additional observations from a re-analysis of the deposited data

How the results depend on the processing

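With a 25-kb window 38 of the 47 genes had a loop at ZT10 and 38 at ZT22, 17 passed the 2-fold rule, and the log2 ratio of the summed share, ZT10 over ZT22, turned to 0.0502. With loops of at least 4 PETs the numbers were 12 and 7 genes with a loop, 1 past 2-fold, and a log2 ratio of -1.71. With a 2-kb window 14 genes had a loop at ZT22 and 0 passed 2-fold, and with loops of at most 2 Mb 14 had a loop at ZT22 and 1 passed. The genes with enough PETs for the 2-fold rule numbered 28, 2, 4 and 7 under these settings, in the order given. The share of all genes passing was not recorded for them, so these counts have no background. Windows at gene ends alone gave the same loops, since every gene is shorter than 10 kb. The difference from genes of like length at ZT10 stayed above 0 under each of the 6 alternatives, between 7.38 and 26.9 points. One of these, leaving out receptor families, was chosen after seeing the data. The WT over dhIDR log2 share turned negative with a 25-kb window (-0.0734), with at least 4 PETs (-0.22) and with loops of at most 2 Mb (-0.0604), and ranged from -0.31 to 0.29 when each replicate was left out. No ribosomal protein gene was called between WT and dhIDR under the alternatives that tested any, and none was tested with a 2-kb window, at least 4 PETs or at most 2 Mb. With the replicate block, edgeR called 0 of the 1 tested, and 3 rather than 1 of 4753 genes. Over all genes edgeR called 3 with a 25-kb window, 3 without the filter, 2 to 6 with a replicate left out, and 0 with gene ends alone, at least 4 PETs or at most 2 Mb, where fewer genes are tested. Deviations of same-numbered libraries correlated at 0.00213, so no pairing by replicate number was seen. With 2 libraries per group and counts this low, that value cannot show whether the samples are paired. A fit without 1 library takes the lone library of its group to vary like the others. The cause of these shifts was not tested. Counts this close to the floor of 3 PETs per loop limit every value here, since a pair left off the lists is not seen.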
